A study of Mus musculus with 12 samples.

Results

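The genes described here are Cd81 and 9 other tetraspanins of blood cells, Cd9, Cd37, Cd53, Cd63, Cd82, Cd151, Tspan3, Tspan4 and Tspan32. Their values are all probe sets that the array annotation assigns to 1 of these genes alone. A probe set is the group of short oligonucleotides that together measure a transcript. Of the 10 genes, 9 had such probe sets, 15 in all, and all 9 were among the 11223 genes tested. Cd63 had none in the annotation used here and was not analysed here. Cd81 was chosen from its rise in both Bcl11a lines on these same arrays, so its values against the Trib1 line are given as a description with no test. The other members were chosen by family and by their known expression in blood cells, with earlier results of these arrays known.

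Total RNA came from 3 murine acute myeloid leukaemia cell lines, each with 4 arrays and no treatment, all grown in medium with serum and interleukin-3. TB13 and TB14 were labelled as lines that express both Trib1 and Bcl11a, and the line named Trib1 as expressing Trib1 without Bcl11a. Trib1, which all 3 lines carry, is a pseudokinase known to promote the degradation of C/EBPalpha, and Bcl11a is a zinc finger transcriptional repressor. The series asks whether Bcl11a counteracts PU.1, a transcription factor of myeloid cells. The labels name neither the vector and promoter behind each transgene nor whether a line is a single clone. They also do not tie the arrays of a line to separate cultures. The p-values set differences between lines against the spread of arrays within lines, which may be technical alone. With only the Trib1 line labelled as without Bcl11a, an effect of Bcl11a and other differences between the lines cannot be told apart.

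Tetraspanins are small membrane proteins with a short and a long extracellular loop. They bind one another and partner proteins such as integrins, immunoglobulin superfamily receptors and proteases, and so organise patches of the plasma membrane and of endosomes and vesicles. In blood cells they are known for tuning adhesion, migration and receptor signalling, and several are routine surface markers of leukocytes and of extracellular vesicles.

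The TB13 arrays differed in overall signal from the other 8. Their medians over all probe sets were higher, at 25.5 to 25.9 intensity units, against 20.8 to 21.1 in TB14 and 21.1 to 21.4 in Trib1. The TB13 upper quartile was lower, at 71.8 to 72.5, against 102 to 109 on the TB14 and Trib1 arrays. Of 18 hybridization controls, which are transcripts added to every sample, 17 were lower in TB13 than in Trib1, with a median log2 change of -0.93. In TB14 the same controls had a median change of 0.0010. The median log2 change over all tested genes was -0.39 in TB13 and -0.0022 in TB14 against Trib1, and quantile scaling, which gives every array the same distribution of values, put them at 0.028 and -0.0051. TB13 changes are read beside their quantile-scaled values for this reason, and the part of the array signal in them was not tested. The 4 Bcl11a probe sets read 6.70 to 21.5 and the 2 Trib1 probe sets 14.4 to 40.1 over all arrays, whose medians were 20.8 to 25.9, and such dim signals did not check the labels. The defining myeloid genes Ptprc, Itgam, Spi1, Cebpa, Csf2rb and Mpo exceeded the array median on every array. Their sum differed by line, at 5161 to 5338 in TB13 and 7626 to 7680 in TB14, against 6545 to 6628 in Trib1. Itgam averaged 32.9 in TB13 and 154 in TB14, against 260 in Trib1. For Spi1 the means were 260, 438 and 572, and for Mpo 853, 2296 and 226. Col1a1 and Col1a2, markers of stroma, had line means below 10 intensity units. Of the other marker lists, 5 stromal and endothelial genes summed to 345 to 396 in TB13 and 615 to 658 in TB14, against 814 to 847 in Trib1, with 2 of 5 above the array median in each line. The 4 erythroid genes summed to 1631 to 1761 in TB13 and 1549.9 to 1582 in TB14, against 937 to 986 in Trib1. Of these genes 2 exceeded the median in each line. Hba-a1 made up most of the sums, with means of 1519 in TB13 and 1459 in TB14, against 857 in Trib1. Epor averaged 120 in TB13 and 68.0 in TB14, against 70.0 in Trib1. The 5 megakaryocyte and platelet genes, all above the median, summed to 963 to 1021 in TB13 and 1265 to 1290.0 in TB14, against 1206 to 1256 in Trib1. Of 5 B cell genes 2 exceeded the median in each line, and of 4 T cell genes 2 did in TB13 and 3 in TB14, against 4 in Trib1. The part of these genes' cell types in the results was not tested.

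Cd81 was near the middle of the signal range in the Trib1 line and well above it in both Bcl11a lines. CD81 is found on most leukocytes and is known in human liver as an entry receptor of hepatitis C virus. Its single probe set read 101, 111, 103 and 104 intensity units on the TB13 arrays and 206, 224, 204 and 216 on the TB14 arrays, against 29.5, 30.7, 29.5 and 34.9 on the Trib1 arrays. All arrays of each line were separate from those of the other lines, with TB14 highest and Trib1 lowest. The means were 105 ± 4.79 in TB13 and 212 ± 9.43 in TB14, against 31.1 ± 2.57 in Trib1 (SD, n = 4), or 3.36 and 6.82 times the Trib1 mean. On the scale of log2(intensity + 12.7) used for all tests, which understates changes of dim genes, the difference from Trib1 was 1.42 in TB13 and 2.36 in TB14. After quantile scaling these were 1.88 and 2.10. In RNA from whole cultures, a change in how many cells carry a transcript and a change in its amount per cell cannot be told apart.

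The Trib1 values of Cd81 lay at percentiles 58.5 to 61.7 of their arrays, so the size of its fold depends on how low signals are treated. Over 25 alternative settings the log2 difference ranged from 0.93 to 2.50 in TB13 and from 1.69 to 2.73 in TB14. Its sign stayed positive, which goes with the choice of Cd81. Settings such as the filters and the variance trend cannot change its value. Among all 11223 genes Cd81 had the 15th largest difference in TB13 and the 14th largest in TB14, ranks that go with its choice. Between the Bcl11a lines Cd81 was higher in TB14 than in TB13, with a log2 difference of 0.94 ± 0.055 as deposited (SE; limma adjusted p = 3.5e-12) and 0.23 ± 0.060 after quantile scaling (limma adjusted p = 0.00246). Calibration on the hybridization controls turned this difference to -0.13 (limma adjusted p = 0.085), so the order of the 2 Bcl11a lines rested on the scaling.

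**Figure D1:**
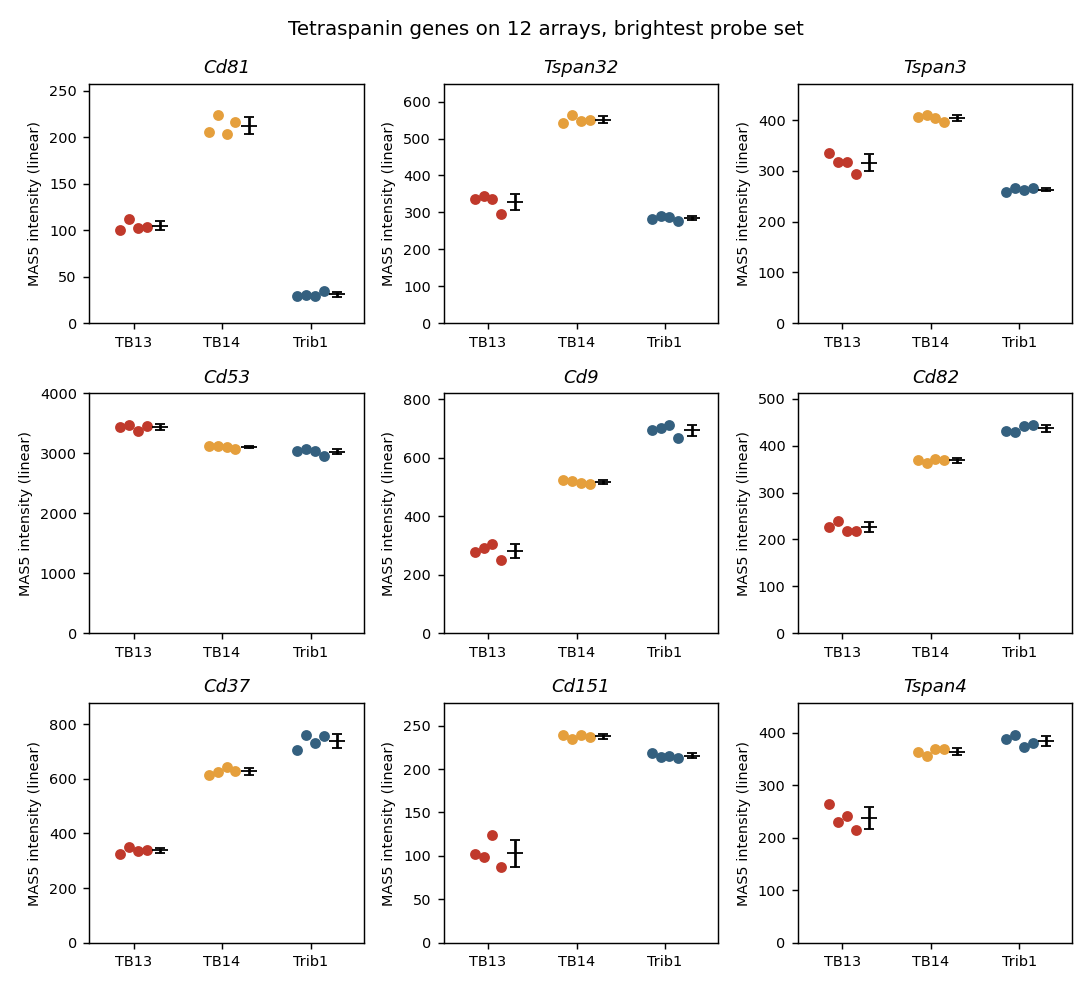
Linear MAS5 intensity of the 9 measured tetraspanin genes on each array, by line, for the brightest probe set of each gene. Points are arrays, and the black bar beside them is the mean with its SD (n = 4). Cd81 lies at 101 to 111 in TB13 and 204 to 224 in TB14, above the 29.5 to 34.9 of Trib1, while Cd9, Cd82 and Cd37 are lowest in TB13 and highest in Trib1.

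The leukocyte-restricted members Tspan32, Cd37 and Cd53 did not move as a group. Tspan32, a tetraspanin of haematopoietic cells that restrains T cell responses in mice, read 336, 346, 337 and 296 in TB13 and 543, 564, 547 and 550.3 in TB14, against 282, 289.9, 288 and 278 in Trib1. No TB14 array overlapped another line, and the lowest TB13 array lay just above the highest Trib1 array. Its means were 329 ± 22.2 in TB13 and 551 ± 9.25 in TB14, against 284 ± 5.57 in Trib1 (SD, n = 4). Tspan32 rose by 0.92 ± 0.041 on the log2 scale in TB14 (SE; limma adjusted p = 3.64e-13), and 1.14% of the genes tested had a higher change. In TB13 the change was 0.20 ± 0.041 as deposited (SE; limma adjusted p = 0.000166) and 0.92 ± 0.034 after quantile scaling (limma adjusted p = 5.26e-13), while median scaling left 0.025 without a call (limma adjusted p = 0.576).

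A second, dimmer Tspan32 probe set showed another order of the lines. It read 127, 142, 140.5 and 108 in TB13 and 85.1, 78.9, 78.2 and 95.4 in TB14, against 72.6, 88.9, 91.0 and 65.3 in Trib1. Here TB13 stood above both other lines, and TB14 and Trib1 overlapped. In a fit of all probe sets its log2 change was 0.63 ± 0.091 in TB13 (SE; limma adjusted p = 2.54e-06), 1.25 there after quantile scaling (limma adjusted p = 2.57e-09), and 0.082 ± 0.091 in TB14 (limma adjusted p = 0.5). The annotation does not say which Tspan32 transcripts each probe set measures.

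Cd37, which in mouse leukocytes is known to limit interleukin-6 signalling and to support antibody responses, read 326, 351, 336 and 338 in TB13 and 613, 626, 644 and 628 in TB14, against 706, 762, 731 and 756 in Trib1. The lines did not overlap, and Trib1 was highest. Cd37 fell by 1.10 ± 0.032 in TB13 on the log2 scale as deposited (SE; limma adjusted p = 2.14e-16), by 0.42 after quantile scaling (limma adjusted p = 2.25e-09), and by 0.23 ± 0.032 in TB14 (SE; limma adjusted p = 5.87e-06). The direction held under all 5 scalings compared. A second Cd37 probe set, at 41.6 ± 2.31 in TB13 and 69.9 ± 4.10 in TB14, against 79.2 ± 4.33 in Trib1 (SD, n = 4), gave log2 changes of -0.76 and -0.15 (limma adjusted p = 1.2e-10 and 0.027), with -0.70 in TB13 after quantile scaling.

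Cd53, carried by nearly all leukocytes and known to stabilise L-selectin on the surface of mouse lymphocytes, was among the brightest 1% of probe sets and hardly differed between TB14 and Trib1. It read 3433, 3478, 3366 and 3459.8 in TB13 and 3115, 3125, 3105 and 3079.7 in TB14, against 3035, 3069, 3038 and 2964 in Trib1. TB13 was highest, while the lowest TB14 array stood just above the highest Trib1 array. The log2 change was 0.18 ± 0.014 in TB13 (SE; limma adjusted p = 3.74e-10), 0.23 there after quantile scaling, and 0.038 ± 0.014 in TB14 (limma adjusted p = 0.0365). The TB14 call was lost in 11 of 25 alternatives, 6 of which left out 1 array, with adjusted p up to 0.287. Without TB14 replicate 1, 2 or 3 the limma adjusted p was 0.076, 0.0927 and 0.0676, and without Trib1 replicate 1, 3 or 4 it was 0.0578, 0.0508 and 0.133. The TB13 call was lost after median scaling (limma adjusted p = 0.559). A dim second Cd53 probe set, at 49.1 ± 2.66 in TB13 and 68.3 ± 5.65 in TB14, against 57.8 ± 2.66 in Trib1 (SD, n = 4), gave -0.19 and 0.20 (limma adjusted p = 0.00484 and 0.00752). After quantile scaling these were -0.079 and 0.15 and neither was called (limma adjusted p = 0.276 and 0.0825). As deposited the probe sets had opposite signs in TB13, where the mean of both gave the gene a change of -0.0042 (limma adjusted p = 0.89).

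**Figure D2:**
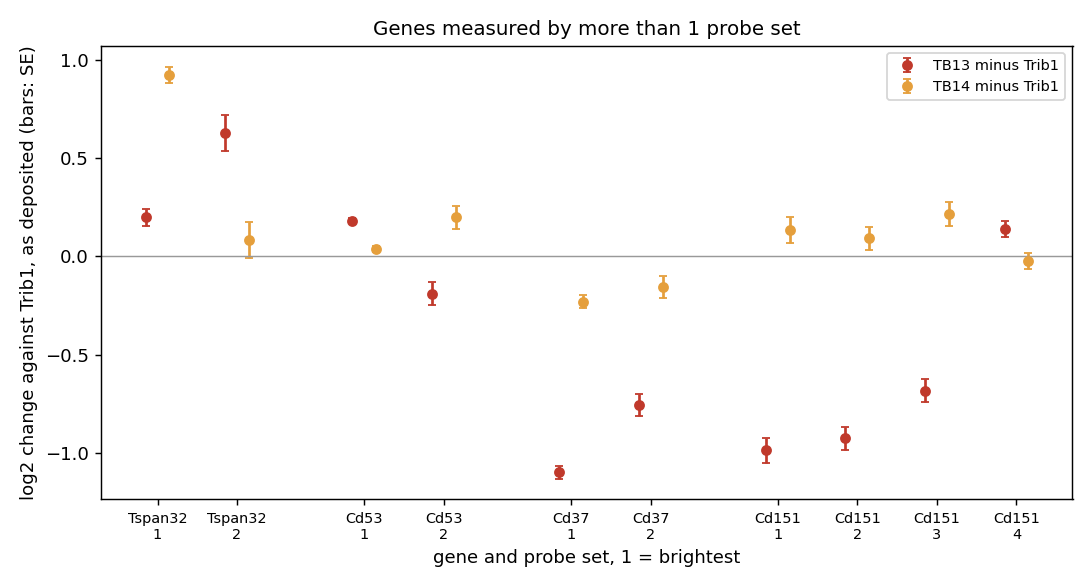
Log2 change against the Trib1 line, as deposited, for each probe set of the 4 genes measured by more than 1 probe set, with TB13 left of TB14 and bars for the SE (n = 4 arrays a line). The Cd37 probe sets fall on the same side of 0 in both lines, the Cd53 probe sets lie at 0.18 and -0.19 in TB13, and the Tspan32 probe sets lie at 0.92 and 0.082 in TB14. The fourth Cd151 probe set is below every array's median.

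Start-site windows of 4 members are shown. Cd37 and Cd53 hold letters known from PU.1, the factor the series names, as does 1 of the 4 Cd82 windows, which is not shown. Cd81 and Tspan32 lack those letters and are shown as near neighbours that were both higher in TB14. All windows run from 250 bases before to 50 after the annotated start, on the gene's strand, as given by RefSeq for GRCm38.p6. Capitals mark matches, on either strand, to GAGGAAGT or ACTTCCTC (a PU.1 consensus), TGACCA or its reverse TGGTCA (letters bound by BCL11A in human globin promoters) and GGGCGG or its reverse CCGCCC (a GC box). No matches overlapped. The files name no genome build, so these coordinates belong to RefSeq alone.
Cd81, chr7:143052500-143052799, plus strand: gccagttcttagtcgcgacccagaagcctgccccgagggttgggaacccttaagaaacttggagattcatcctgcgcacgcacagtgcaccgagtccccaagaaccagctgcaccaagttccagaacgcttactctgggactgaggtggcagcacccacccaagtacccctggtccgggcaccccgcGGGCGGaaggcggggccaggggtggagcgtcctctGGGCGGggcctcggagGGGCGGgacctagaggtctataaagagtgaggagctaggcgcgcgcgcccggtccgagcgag
Tspan32, chr7:143004796-143005095, plus strand: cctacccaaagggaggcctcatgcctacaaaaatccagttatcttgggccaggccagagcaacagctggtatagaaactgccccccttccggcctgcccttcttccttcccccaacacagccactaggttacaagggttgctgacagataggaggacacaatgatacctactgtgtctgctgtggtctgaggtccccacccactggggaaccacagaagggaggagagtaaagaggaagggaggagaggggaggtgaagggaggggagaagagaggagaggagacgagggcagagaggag
Cd37, chr7:45238790-45239089, minus strand: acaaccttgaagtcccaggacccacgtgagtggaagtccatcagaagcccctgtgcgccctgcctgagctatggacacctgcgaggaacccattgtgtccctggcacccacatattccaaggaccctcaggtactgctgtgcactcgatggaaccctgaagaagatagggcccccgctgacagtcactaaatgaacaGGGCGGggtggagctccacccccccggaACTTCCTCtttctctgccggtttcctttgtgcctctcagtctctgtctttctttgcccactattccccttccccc
Cd53, chr3:106790100-106790399, minus strand: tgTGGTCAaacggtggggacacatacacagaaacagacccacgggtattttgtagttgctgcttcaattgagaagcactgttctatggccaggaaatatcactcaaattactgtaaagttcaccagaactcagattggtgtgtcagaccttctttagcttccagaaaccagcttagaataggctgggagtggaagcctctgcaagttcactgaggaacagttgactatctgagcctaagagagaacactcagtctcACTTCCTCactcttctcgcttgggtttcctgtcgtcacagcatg

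The Cd81 window had 3 GC boxes, beginning at positions -63, -28 and -12 counted from the start site as 0, and neither of the other motifs. The Tspan32 window held no exact match to any of the 3 motifs. Cd37 had the PU.1 letters at -25 and a GC box at -53, and Cd53 had the PU.1 letters at 6 and the BCL11A letters at -248. Over the 15 windows of all 10 members, some with several starts, the PU.1 letters occurred in 3, the BCL11A letters in 1 and the GC box in 7. Of 32851 windows of all genes, 3.2% held the PU.1 letters, 13.6% the BCL11A letters and 35.7% the GC box. A match is only a run of letters. The absence of an exact match says nothing of binding to similar letters or elsewhere.

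The integrin-associated members Cd9, Cd82 and Cd151 were all lower in TB13 as deposited, where 63.5% of all genes were called lower. Cd9 and Cd82 were lower in TB14 as well, where 21.5% were. Of these members, only Cd9 was called lower in TB13 under calibration on the hybridization controls. Cd9, needed on mouse eggs for sperm fusion and common on platelets, mast cells and myeloid cells, read 278, 291, 304 and 249 in TB13 and 525, 521, 513 and 509.7 in TB14, against 695, 701, 713 and 667 in Trib1. The lines did not overlap, with TB13 lowest and Trib1 highest. Cd9 fell by 1.27 ± 0.045 in TB13 on the log2 scale (SE; limma adjusted p = 2.42e-15), by 0.56 after quantile scaling (limma adjusted p = 4.56e-10), and by 0.42 ± 0.045 in TB14 (SE; limma adjusted p = 1.86e-07). It was lower in both lines under all 5 scalings. In TB14, 93.3% of the genes tested had a higher log2 change.

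Cd82, a metastasis suppressor that also marks quiescent mouse blood stem cells, read 226, 240.3, 218 and 217 in TB13 and 370.0, 362, 373 and 369 in TB14, against 430.5, 430.0, 442 and 445 in Trib1. Again the lines were separate, in the order TB13, TB14, Trib1 from low to high. The log2 change in TB13 was -0.92 ± 0.036 as deposited (SE; limma adjusted p = 1.12e-14) and -0.16 after quantile scaling (limma adjusted p = 0.000192). Calibration on the hybridization controls left -0.0036 in TB13 without a call (limma adjusted p = 0.95). In TB14 the change was -0.24 ± 0.036 (SE; limma adjusted p = 1.58e-05).

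Cd151, the tetraspanin that binds laminin-binding integrins, had 4 probe sets, and the brightest read 102, 98.3, 124 and 87.4 in TB13 and 239.7, 234, 239 and 237 in TB14, against 219, 213, 216 and 213 in Trib1. TB13 lay far below, and every TB14 array slightly above every Trib1 array. Its log2 change in TB13 was -0.99 ± 0.065 as deposited (SE; limma adjusted p = 2.55e-11) and -0.31 ± 0.076 after quantile scaling (limma adjusted p = 0.00156), but 0.085 under calibration on the controls (limma adjusted p = 0.22). In TB14 it was 0.13 ± 0.065 and was not called (SE; limma adjusted p = 0.101). The SD was 15.2 in TB13 and 2.57 in TB14, against 2.69 in Trib1, and in a fit without the TB13 arrays the same TB14 change was called (limma adjusted p = 9.66e-05). Leaving out only TB13 replicate 3 or 4 also gave a call (limma adjusted p = 0.0153 and 0.0342).

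The next Cd151 probe sets gave TB13 changes of -0.93 and -0.68 and TB14 changes of 0.091 and 0.21 (limma adjusted p = 0.205 and 0.00574 in TB14). After quantile scaling the TB13 changes were -0.39 and -0.48, and the TB14 call was lost (limma adjusted p = 0.0955). The brightest and the third are of a type whose oligonucleotides may bind related sequences as well. The fourth, at 13.1 to 20.1 on all arrays, lay below every array median, and was the only 1 of the 15 probe sets not to pass the filter on dim signals.

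Tspan3 and Tspan4 are widely expressed members. Tspan3, known to be required for acute myeloid leukaemia to propagate in mouse models, read 336, 317, 318 and 295 in TB13 and 406, 411, 403 and 397 in TB14, against 259, 266, 263 and 266 in Trib1. All lines were separate, with TB14 highest and Trib1 lowest. Tspan3 rose by 0.59 ± 0.038 in TB14 on the log2 scale (SE; limma adjusted p = 8.47e-11), and 2.67% of the genes tested had a higher change. In TB13 it rose by 0.25 ± 0.038 as deposited (SE; limma adjusted p = 3.78e-06) and by 0.98 ± 0.031 after quantile scaling (limma adjusted p = 8.29e-14), but median scaling left 0.079 without a call (limma adjusted p = 0.0661).

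Tspan4, a component of migrasomes, the vesicles that migrating cells leave on retraction fibres, read 264, 230.1, 241 and 215 in TB13 and 364, 355, 369 and 369 in TB14, against 388, 397, 373 and 381 in Trib1. TB13 was lowest, and TB14 lay just below Trib1 with no overlap. The log2 change in TB14 was -0.075 ± 0.047 (SE; limma adjusted p = 0.209), called only without the TB13 arrays (limma adjusted p = 0.00671) and after cyclic loess scaling (limma adjusted p = 0.0129). In TB13 the change of -0.67 ± 0.047 as deposited (SE; limma adjusted p = 6.66e-11) turned to 0.086 after quantile scaling (limma adjusted p = 0.0674), 0.066 after cyclic loess and 0.25 under calibration on the controls, so no direction can be given for Tspan4 in TB13.

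**Figure D3:**
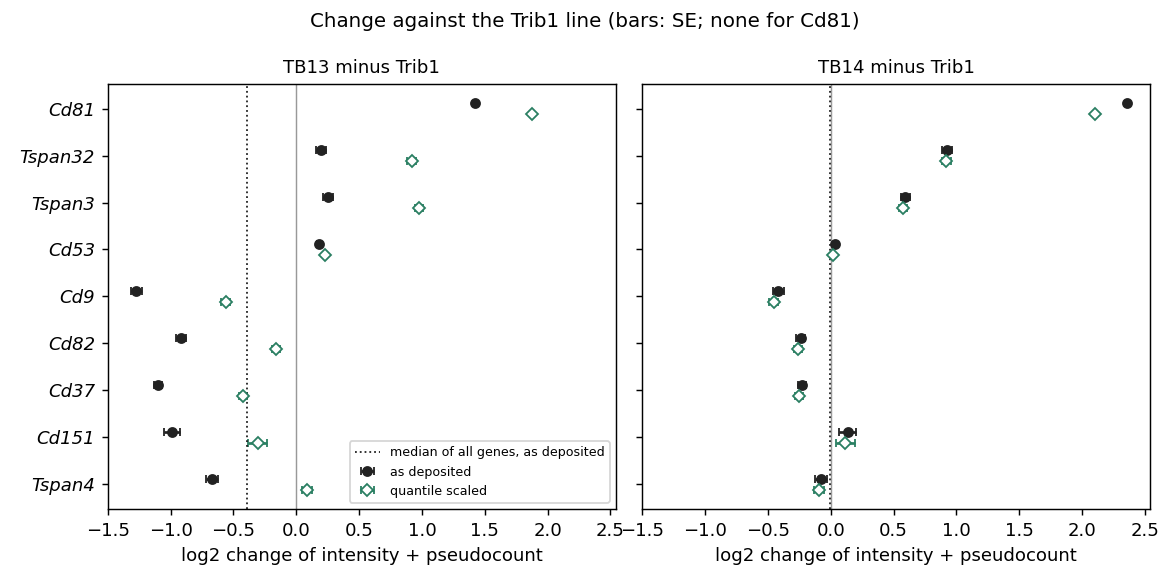
Log2 change of each measured member against the Trib1 line in TB13 (left) and TB14 (right), as deposited (filled circles) and after quantile scaling (open diamonds), with bars for the SE and none for Cd81, which was not tested here. The dotted line is the median of all 11223 genes as deposited, -0.39 in TB13 and -0.0022 in TB14. Quantile scaling shifts most TB13 points to the right and leaves most TB14 points in place.

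Counted without Cd81, the 8 other measured members split evenly in TB14. Tspan32, Tspan3 and Cd53 were called higher and Cd9, Cd82 and Cd37 lower, against 27.0% of all tested genes called higher and 21.5% called lower. None of the 8 reached 2-fold, which 1.02% of genes did upwards and 1.76% downwards. Their median log2 change was -0.019, beside -0.0022 over all genes. Without the TB13 arrays 4 were called higher and 4 lower, with 33.8% and 27.9% of all genes.

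In TB13 as deposited 3 of the 8 were called higher, Tspan32, Tspan3 and Cd53, where 29.0% of all genes were, and 5 lower, where 63.5% were. On the log2 scale used for all tests, Cd9 and Cd37 fell 2-fold or more, as 14.6% of genes did. None rose that far, as 1.01% did. In plain mean intensity Cd151 also fell that far, to 0.478 times the Trib1 mean. The median change of the 8 was -0.79, beside -0.39 over all genes. After quantile scaling 3 were called higher and 4 lower, with 42.2% and 38.1% of genes called, and the members' median was -0.037 beside 0.028. Median scaling gave none higher and 5 lower, with 21.7% and 69.6% of genes, and calibration on the hybridization controls gave 4 higher and 2 lower, with 73.4% and 11.8%. In both lines the members' counts lay within 2 genes of what these shares give for 8 genes. Both comparisons share the Trib1 arrays.

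Between the Bcl11a lines the direction of most members depended on the scaling. As deposited 8 of the 9 measured members were higher in TB14 than in TB13 and 1, Cd53, lower, where 63.3% of all genes were called higher and 29.4% lower. On the log2 scale used for all tests, Cd151 alone passed 2-fold upwards, as 15.1% of genes did. Its difference was 1.12 ± 0.065 (SE; limma adjusted p = 3.41e-12). None passed 2-fold downwards, as 1.20% did. In plain mean intensity the TB14 to TB13 ratio was 2.31 for Cd151 and 2.03 for Cd81. After quantile scaling 4 members were higher and 4 lower, with 38.6% and 41.3% of genes. Median scaling gave all 9 higher and none lower, with 70.1% and 21.4% of genes, and calibration on the hybridization controls gave none higher and 4 lower, with 13.5% and 70.7%. Cd81, Cd9, Cd37 and Cd151 were called higher, and Cd53 lower, both as deposited and after quantile scaling. Cd151 had 0.42 ± 0.076 after quantile scaling (SE; limma adjusted p = 8.73e-05), and Cd37 had 0.87 as deposited and 0.17 after quantile scaling (limma adjusted p = 9.33e-05). Under the calibration the calls of Cd9 (0.020), Cd37 (0.089) and Cd151 (0.057) were lost, with limma adjusted p of 0.711, 0.0821 and 0.416. Tspan3 had 0.34 as deposited but -0.40 after quantile scaling (limma adjusted p = 5.56e-09), and Tspan32 had 0.0035 (limma adjusted p = 0.928).

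Across the 12 arrays Tspan3 and Tspan32 followed Cd81 most closely among the members, with Pearson correlations of log2 values of 0.96 and 0.90, while Cd9 had -0.43 and Cd82 -0.36. Of all tested genes the 5 most like Cd81 were Mpo, Thy1, Ugt1a6a, Ugt1a9 and Chdh, with correlations of 0.996 to 0.998. Mpo, the peroxidase of primary granules, averaged 853 ± 10.1 in TB13 and 2296 ± 23.9 in TB14, against 226 ± 12.5 in Trib1 (SD, n = 4). Chdh, choline dehydrogenase, averaged 101 ± 4.60 in TB13 and 193 ± 16.1 in TB14, against 31.0 ± 3.49 in Trib1. The 12 arrays are 3 groups of 4, so these correlations mostly compare 3 line means, and Ugt1a6a and Ugt1a9 share sequence.

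Tspan32 lies close to Cd81 on chromosome 7, with 1 non-coding gene annotated between them, so the 10 nearest annotated genes on either side of Cd81 were listed. Of these 20, 13 had a probe set and 9 were tested. In TB14, 2 of the 9 were called higher and none lower, with a median of 0.0089, where 27.0% of all genes were called higher and 21.5% lower. Tspan32 was 1 of the 2, but it led to this list, so its call cannot count as a result of it. The dimmer Tspan32 probe set had 0.082 in TB14 and was not called (limma adjusted p = 0.5). The other gene called was Tssc4, next to Cd81 on its other side. Tssc4, which takes part in assembling a splicing particle in human cells, averaged 123 ± 4.18 in TB13 and 285 ± 8.99 in TB14, against 171 ± 3.05 in Trib1 (SD, n = 4). Its log2 change was 0.70 in TB14 (limma adjusted p = 3.2e-11), and in TB13 it was -0.44 as deposited and 0.27 after quantile scaling (limma adjusted p = 5.41e-09 and 5.69e-06), opposite in sign. Trpm5 passed the filter on dim signals only through the TB13 arrays, so that its call as higher in TB13 was set by the filter. Of the other 7 besides Tspan32, 5 were called higher and 2 lower in TB13 as deposited, where 29.0% and 63.5% of all genes were. After quantile scaling 6 were called higher and none lower, with 42.2% and 38.1% of all genes. Most of the others were dim, such as Ins2 at 43.8 in TB13 and 29.1 in TB14, against 30.4 in Trib1.

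**Figure D4:**
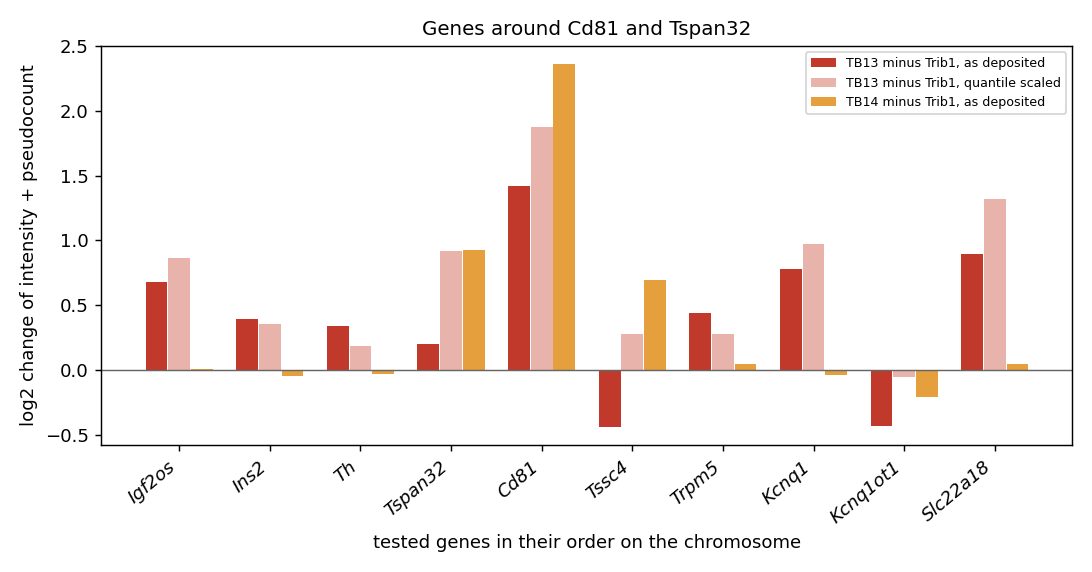
Log2 change against the Trib1 line for the tested genes among the 10 annotated neighbours on each side of Cd81, and for Cd81 itself, in chromosome order without distances. Each bar is the brightest probe set of its gene. In TB14 the bars of Tspan32 (0.92), Cd81 (2.36) and Tssc4 (0.70) stand out, with the other bars from -0.21 to 0.046. TB13 bars are higher than 0 for most genes, dim ones included.

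Of 21 tetraspanin genes outside the 10, 20 had a probe set and 15 were tested. In TB14, 1 was called higher, Tspan14, and 4 lower, with 10 not called and a median of -0.0073, where 27.0% and 21.5% of all genes were called higher and lower. Tspan9, found on platelets, averaged 64.6 ± 3.94 in TB13 and 52.8 ± 2.03 in TB14, against 131 ± 6.41 in Trib1 (SD, n = 4). It fell in both lines, with log2 changes of -0.90 in TB13 and -1.14 in TB14 (limma adjusted p = 5.16e-12 and 8.57e-13), and -0.49 in TB13 after quantile scaling. Tspan31, a gene often co-amplified with CDK4 in human sarcoma, averaged 923 ± 43.5 in TB13 and 1319.7 ± 13.9 in TB14, against 1462 ± 28.0 in Trib1, with changes of -0.66 and -0.15, and -0.29 in TB13 after quantile scaling. Tspan13 changed by -0.51 and -0.22, with the TB13 value at 0.26 after quantile scaling. Rom1, a photoreceptor protein that read 16.6 to 26.0 on average, changed by -0.40 and -0.24, or -0.54 in TB13 after quantile scaling. Rom1 is 1 of the 4 called lower in TB14. It passed the filter on dim signals only through the Trib1 arrays, so that its calls as lower in both lines were set by the filter. Tspan14, which escorts the protease ADAM10 to the cell surface, rose by 0.34 in TB14 (limma adjusted p = 5.31e-06) and changed by -0.55 in TB13, or 0.22 after quantile scaling.

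Of these 15, Tspan18 passed the filter only through the TB13 arrays, so that its call as higher there was set by the filter. Of the other 14, 8 were called higher and 6 lower in TB13 as deposited, where 29.0% and 63.5% of all genes were, and 10 and 3 after quantile scaling, where 42.2% and 38.1% were. Both counts of lower genes include Rom1, whose calls were set by the filter too. The 8 had means of 21.6 to 42.8 on the Trib1 arrays, and none of them was called in TB14. Upk1a, a tetraspanin of bladder lining, is an example, at 74.1 ± 2.18 in TB13 and 30.9 ± 2.56 in TB14, against 31.6 ± 1.30 in Trib1 (SD, n = 4). The part of the TB13 array signal in these differences was not tested.

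**Figure D5:**
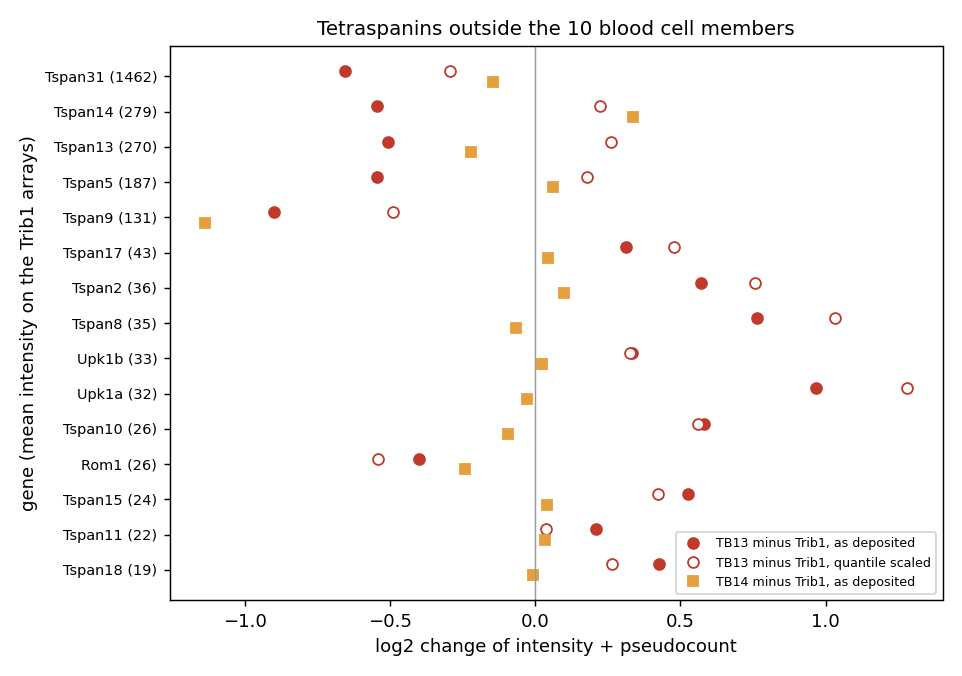
Log2 change against the Trib1 line of the 15 tested tetraspanins that are not among the 10 members, ordered by mean intensity on the Trib1 arrays, which is given beside each name. Red circles are TB13 as deposited (filled) and after quantile scaling (open), and orange squares are TB14. The dim genes in the lower part are mostly to the right of 0 in TB13 and near 0 in TB14, and Tspan9 lies left of 0 in both lines.

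Partner proteins of tetraspanins moved in both directions. Of 8 integrin genes linked to tetraspanins 6 were tested, and 3 were called higher and 1 lower in TB14, where 27.0% and 21.5% of all genes were. Itga2b, which pairs with Itgb3 in the platelet fibrinogen receptor, averaged 501 ± 29.9 in TB13 and 492 ± 8.19 in TB14, against 688 ± 31.1 in Trib1 (SD, n = 4), a fall of 0.47 on the log2 scale in TB14 (limma adjusted p = 5.7e-09). Itgb3 rose by 0.47 in TB14 and Itga4, a partner of CD81 in the VLA-4 integrin, by 0.14 (limma adjusted p = 5.75e-08 and 0.0038). In TB13, 1 of the 6 was called higher and 4 lower as deposited, where 29.0% and 63.5% of all genes were, but 5 higher and none lower after quantile scaling, where 42.2% and 38.1% were. Itga4, Itgb3 and Itga2b, at -0.37, -0.31 and -0.45 in TB13 as deposited, had 0.33, 0.46 and 0.16 after quantile scaling.

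Of 22 other membrane partners 18 were tested, and 5 were called higher and 6 lower in TB14, where 27.0% and 21.5% of all genes were. Cd4 and Cd46 passed the filter only through the TB13 arrays. Of the other 16, 6 were called higher and 9 lower in TB13 as deposited, where 29.0% and 63.5% of all genes were, and 8 and 7 after quantile scaling, where 42.2% and 38.1% were. Hbegf, a growth factor precursor that binds CD9, averaged 53.2 ± 4.61 in TB13 and 38.3 ± 0.976 in TB14, against 158 ± 14.1 in Trib1, with log2 changes of -1.37 and -1.74 (limma adjusted p = 1.05e-13 and 1.49e-14) and -1.07 in TB13 after quantile scaling. Cd44, the hyaluronan receptor, changed by -2.10 in TB13, -1.41 there after quantile scaling, and -0.91 in TB14. Of the chains of the high-affinity IgE receptor, which CD81 restrains in rodent mast cells, Ms4a2 rose by 1.46 in TB13 and 2.88 in TB14 (limma adjusted p = 2.82e-15 and 3.68e-19), with 2.09 in TB13 after quantile scaling. Fcer1a changed by -0.95 in TB13 and -1.61 in TB14, but by -0.20 in TB13 after quantile scaling (limma adjusted p = 0.00025). Fcer1g, another chain, changed by -0.56 in TB13, -0.38 there after quantile scaling, and -0.64 in TB14 (limma adjusted p = 4.16e-15 in TB14). The list of mast cell and basophil markers summed to 7412 to 7613 in TB13 and 9298 to 9373 in TB14, against 8475 to 8589 in Trib1, with 5 of 5 above the array median everywhere, and its part in these results was not tested.

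Genes of vesicle formation, which tetraspanins mark, split into 5 higher and 6 lower of 19 tested in TB14, where 27.0% and 21.5% of all genes were called. Sdc4 passed the filter only through the TB13 arrays. Of the other 18, 2 were called higher and 15 lower in TB13 as deposited, where 29.0% and 63.5% of all genes were, and 4 and 12 after quantile scaling, where 42.2% and 38.1% were. Lamp1, a lysosomal membrane glycoprotein, averaged 750.5 ± 6.85 in TB13 and 905 ± 7.39 in TB14, against 1338 ± 26.9 in Trib1 (SD, n = 4), with changes of -0.82 and -0.56 (limma adjusted p = 5.29e-17 and 4.07e-14), and -0.40 in TB13 after quantile scaling. Rab27a and Rab27b, small GTPases that dock secretory vesicles, changed by -0.91 and -0.89 in TB13 as deposited, but by -0.29 and -0.20 there after quantile scaling, and by -0.31 and -0.33 in TB14. Vps4a, an ATPase of membrane scission, changed by -1.06 in TB13, -0.51 there after quantile scaling, and 0.16 in TB14 (limma adjusted p = 0.0155 in TB14, 0.103 after quantile scaling). The median of the list in TB14 was -0.058, beside -0.0022 over all genes.

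All 11 genes for cytoplasmic proteins linked to tetraspanins were tested, and 4 were called higher and 6 lower in TB14, where 27.0% and 21.5% of all genes were. All 11 were called lower in TB13 as deposited, where 63.5% of all genes were, but 6 higher and 4 lower after quantile scaling, where 42.2% and 38.1% were. Prkcb, a protein kinase C that CD53 recruits in B cells, had log2 changes of -2.49 in TB13, -1.89 there after quantile scaling, and -1.32 in TB14 (limma adjusted p = 5.88e-15 as deposited in TB13 and 4.39e-10 in TB14). Prkca changed by -1.05 in TB13, -0.42 there after quantile scaling, and -0.37 in TB14. Socs3, which CD37 is known to engage in B cells, averaged 51.7 ± 6.71 in TB13 and 40.5 ± 1.58 in TB14, against 144 ± 7.20 in Trib1 (SD, n = 4), with changes of -1.29 and -1.56, and -1.02 in TB13 after quantile scaling. Rac1, a GTPase that binds the tail of CD81, changed by -0.55 in TB13, -0.31 there after quantile scaling, and -0.12 in TB14.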

How the data were processed

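The authors deposited 1 linear intensity for each probe set and array, and MAS5 is the tool named in the submitters' processing notes. Its version, scaling target and background correction were not given in the sources used here. No column of another sample was present (0). Genes come from the platform annotation. Of 45141 probe sets 28898 had 1 gene, 551 several and 15588 none, and 104 were controls. No symbol changed when matched by gene identifier to the RefSeq table.

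Intensities were used as log2(intensity + 12.7), the pseudocount being the 25th percentile of all values. Probe sets were kept where 4 or more of the 12 arrays put them above that array's median, and the brightest stood for its gene. One limma 3.58.1 model (R 4.3.3) with 3 lines and a variance trend covered all 11223 genes, with Benjamini-Hochberg adjustment over them and calls at 0.05. Further probe sets of a member come from a fit of all 17475 kept probe sets with 1 gene, and the dim Cd151 probe set in the plot from a fit with no filter. The code was tested on simulated data for TB14 against Trib1 alone. That simulation held no change of overall signal like that of the TB13 arrays, so it cannot speak to the TB13 comparisons. Precision is limited by the 4 arrays of each line, which are not tied to separate cultures. Figures used matplotlib 3.10.9.

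Members, lists and motifs were chosen with earlier results of these data known. Named genes were all members, from each list up to 4 genes called in both lines with the largest mean change against Trib1, and the 5 most correlated with Cd81. Tspan14 and Upk1a among the other tetraspanins, and Ins2, Tspan18, Trpm5, Cd4, Cd46, Fcer1g and Sdc4, were named after their values were seen. Alternatives were 4 other scalings, 2 filters, pseudocounts of 1 and 50, no variance trend, the replicate number as a block, all probe sets or their mean per gene, only the compared lines, a 2-fold threshold, and leaving out each array.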

Additional observations from a re-analysis of the deposited data

Results flagged for a closer look

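On 1 of the 45 combinations of probe set and line looked at, a single array stood apart: the dim Cd53 probe set read 45.1 on TB13 replicate 1 and 50.1 to 50.7 on the other TB13 arrays. Chance alone gives about 1 in 20 such groups.

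For 5 members the change against Trib1 differed between the Bcl11a lines by the test of TB14 against TB13, both as deposited and after quantile scaling, with the same sign. The log2 differences as deposited were 0.94 for Cd81, 0.86 for Cd9, 0.87 for Cd37, 1.12 for Cd151 and -0.14 for Cd53. After quantile scaling they were 0.23, 0.11, 0.17, 0.42 and -0.21. Calibration on the hybridization controls ended the call for Cd81 (-0.13), Cd9 (0.020), Cd37 (0.089) and Cd151 (0.057), with limma adjusted p of 0.085, 0.711, 0.0821 and 0.416, and median scaling turned Cd53 to 0.044. The TB13 arrays also differed from the others in their controls and overall signal, and the part of that in these differences was not tested.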

How the results depend on the processing

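Of the member results against Trib1 and between the lines, none reversed in TB14 against Trib1, and those that did in the other comparisons did so mainly with the scaling. In TB13 against Trib1, Tspan4 turned to 0.086 after quantile scaling, 0.066 after cyclic loess and 0.25 under calibration on the hybridization controls, Cd151 to 0.085 under that calibration, and Cd53 to -0.0042 with the mean of its probe sets. Between TB14 and TB13 after quantile scaling, Tspan3 turned to -0.40, Cd82 to -0.10 and Tspan4 to -0.18. Cyclic loess gave -0.045 for Tspan32, -0.45 for Tspan3, -0.11 for Cd82 and -0.20 for Tspan4. Calibration gave -0.13 for Cd81, -0.076 for Tspan32, -0.50 for Tspan3, -0.23 for Cd82 and -0.31 for Tspan4. Cd53 turned to 0.044 after median scaling and 0.12 with the mean of its probe sets. The cause was not tested. Over the tested members and all alternatives, 191 of 200 values kept their direction and side of the threshold in TB13 against Trib1. In TB14 against Trib1 183 of 200 did, and in TB14 against TB13 206 of 225. The filters, the variance trend, the replicate block and leaving out arrays of the third line left a member's log2 change as it was. In those settings only the adjusted p could move, so these totals overstate how firm the directions are.

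Genes called numbered 10388 in TB13 against Trib1, 5446 in TB14 against Trib1 and 10405 in TB14 against TB13. With the stricter filter 6581 and 6582 of 6891 genes were called in the comparisons with TB13, fewer because fewer were tested. With all probe sets tested the counts were 15804, 8656 and 15935, and with 2-fold as well 1752, 311 and 1830. Leaving out 1 array gave 10253 to 10371, 5005 to 5878 and 10280 to 10389. Higher calls made up 31.4% of the calls in TB13 against Trib1 as deposited, 52.6% after quantile scaling, 51.8% after cyclic loess and 86.1% under calibration, and 68.3%, 48.3%, 46.8% and 16.1% in TB14 against TB13. With the replicate number as a block 10373, 5378 and 10382 genes were called. Same-numbered arrays of different lines correlated at -0.11 to 0.12 in their deviations from the line means (12 pairs). Arrays with other numbers correlated at -0.064 to 0.077 (36 pairs). Correlations this weak over so few pairs cannot decide whether the numbers pair the arrays.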
